A study of Mus musculus with 23 samples.

Results

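The annexins and their S100 partners were followed in mouse embryonic stem (ES) cells that carried an activated form of serum response factor (SRF). The genes were Anxa1 to Anxa7, S100a6, S100a10 and S100a11, and every array probe set annotated to one of these symbols was taken. This gave 10 probe sets with a single symbol for 9 genes, 2 of them for Anxa1, out of 12436 probe sets on the array. The only probe set annotated to S100a11 is also annotated to S100a11-ps and Gm12854, so its signal cannot be assigned to S100a11 alone, and it is described apart and not counted. The genes were chosen with earlier results on SRF-VP16 in these same arrays known, so their differences between SRF-VP16 and its controls are a description and carry no test.

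Annexins bind acidic phospholipids of membranes when calcium is present and take part in membrane repair, vesicle traffic and the anchoring of actin to membranes. S100 proteins are small EF-hand proteins that work as dimers, and several of them bind the amino-terminal tail of one annexin. S100A10 does so with annexin A2, in a complex of a pair of each protein that protects S100A10 from breakdown, and S100A11 does so with annexin A1. SRF binds the CArG box and drives genes of the actin cytoskeleton and the immediate-early response, and the VP16 domain joined to it is a strong viral activator.

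The cells were E81 (-/-), E100 (-/-), E99 (+/-) and E14 wild-type ES lines. Each was transfected with an SRF-VP16 expression plasmid, with SRFdM-VP16, which the labels call the control, or with vector, and total RNA was taken after 72 hours. Which gene the symbols -/- and +/- refer to is not named in the labels, E99 is written E14-99 for its vector arrays and was taken as the same line, and E81 and E100 are each a single line. The 12 groups had 2 arrays each except E100 with vector, which had 1, giving 23 arrays. The labels do not say whether duplicates were separate cultures, so a p-value measures only the spread between these samples, and precision is limited by how few arrays there were. Srf was not analysed here.

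Array medians of the deposited intensity ran from 53.5 to 207, and 23.5% to 43.6% of an array's values were at or below 0. The first E81 array with SRFdM-VP16 had the lowest median and a 5' to 3' Gapdh signal ratio of -0.93 on the log2 scale, against -0.36 to 0.47 on the other arrays. Of 10 ES cell markers, Esrrb lay near the floor described below. Pou5f1, a core pluripotency factor, averaged 16640.5 ± 7281.5 in -/- cells with SRF-VP16 and 23261.5 ± 6477.4 in those with SRFdM-VP16 (SD, n = 4 each). Intensities under 58, the 40th percentile of all values, were set to 58 before the logarithm, and differences are log2 values ± SE from 1 limma fit over all 23 arrays. A probe set was called when limma's Benjamini-Hochberg adjusted p over the 9643 probe sets kept was under 0.05, and all 10 of the annexin and S100 probe sets were kept.

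The wild-type control arrays numbered 2, 1 with SRFdM-VP16 and 1 with vector, stood apart for several of the genes. Anxa2 was 6787 and 8627 on these arrays, against 1302 and 532 on the wild-type arrays numbered 1 with the same plasmids. The _f_at probe set of Anxa1 was 4341 and 4404 on them, against 149 and 20.7 on those numbered 1, and Anxa3 was 2290 and 3620, against 261 and 156. S100a10 differed less, with 6325 and 6784 against 6462 and 5123. Many of the differences that use wild-type controls are therefore also given without these arrays.

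Upstream sequences are shown for 3 genes that were higher with SRF-VP16 in the -/- lines and have a RefSeq window, to let their shared and unshared letters be read. RefSeq windows of build GRCm38.p6 were found for 7 of the 10 genes, and Anxa3, Anxa6 and S100a10 are only named. The 250 bases before the start of each gene are given on the gene's own strand, with matches on either strand to the TATA box (TATAAA), the AP-1 site (TGANTCA) and the Sp1 site (GGGCGG) in capitals. Anxa1 lies on the minus strand at chr19:20390672-20390921, Anxa2 on the plus strand at chr9:69453433-69453682, and S100a6 on the plus strand at chr3:90612644-90612893.
Anxa1: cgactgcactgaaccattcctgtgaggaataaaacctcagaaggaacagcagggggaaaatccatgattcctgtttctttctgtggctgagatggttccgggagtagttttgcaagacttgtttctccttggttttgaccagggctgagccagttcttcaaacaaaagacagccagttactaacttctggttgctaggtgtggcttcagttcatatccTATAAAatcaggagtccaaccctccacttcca
Anxa2: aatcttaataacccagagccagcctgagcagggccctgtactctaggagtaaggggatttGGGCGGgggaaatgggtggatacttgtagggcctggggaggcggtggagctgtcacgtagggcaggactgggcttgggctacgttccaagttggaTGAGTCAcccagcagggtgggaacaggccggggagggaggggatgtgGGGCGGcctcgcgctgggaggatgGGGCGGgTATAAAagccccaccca
S100a6: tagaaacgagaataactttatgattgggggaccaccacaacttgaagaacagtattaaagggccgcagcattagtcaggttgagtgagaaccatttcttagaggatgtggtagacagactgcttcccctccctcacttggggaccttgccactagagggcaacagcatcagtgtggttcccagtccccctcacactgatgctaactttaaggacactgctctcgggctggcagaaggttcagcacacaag

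In these stretches Anxa1 had a TATAAA from base -32 to -27, and Anxa2 had one from -17 to -12. Anxa2 also had a TGAGTCA from -95 to -89 and 3 matches to GGGCGG, and none of the searched motifs was found upstream of S100a6. The CArG box was searched on both strands of the full windows, which run 50 bases past the start. Among the 9 windows of these 7 genes it was found once, as CCTAATTAGG from base 26 to 35 after the start of Anxa5. Of all 32851 windows in the table, 1.63% held a CArG box, 7.81% the AP-1 site, 13.6% the TATA box and 35.7% the Sp1 site. A match is letters only, and its absence covers this window alone. In the same assembly S100a6, S100a10 and S100a11 all lie on chromosome 3, and 1 gene, Gm29950, separates S100a10 from S100a11.

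With SRF-VP16 in the -/- lines, Anxa1, Anxa2, Anxa3, Anxa4 and S100a6 were higher than with SRFdM-VP16, Anxa4 by 3.78-fold and S100a6 by 7.37-fold. Anxa1, Anxa2 and Anxa3 differed by more, but 1 to 4 of the 4 SRFdM-VP16 arrays of each of their probe sets were at the floor, so the size of these differences depends on it. Anxa5, Anxa6, Anxa7 and S100a10 differed by 1.68-fold to 2.47-fold and were not called. The fit called 6 of the 10 probe sets, all higher, beside 2.48% of all probe sets called higher, and the genes were chosen on this comparison, so nothing is read from that count. The median difference was 2.40 over the 10 probe sets and 0.04 over all probe sets. In wild type and E99 together the fit called 0 of 10 with all arrays, beside 0.0207% of all probe sets called higher, and 4 probe sets in all were called there.

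**Figure D1:**
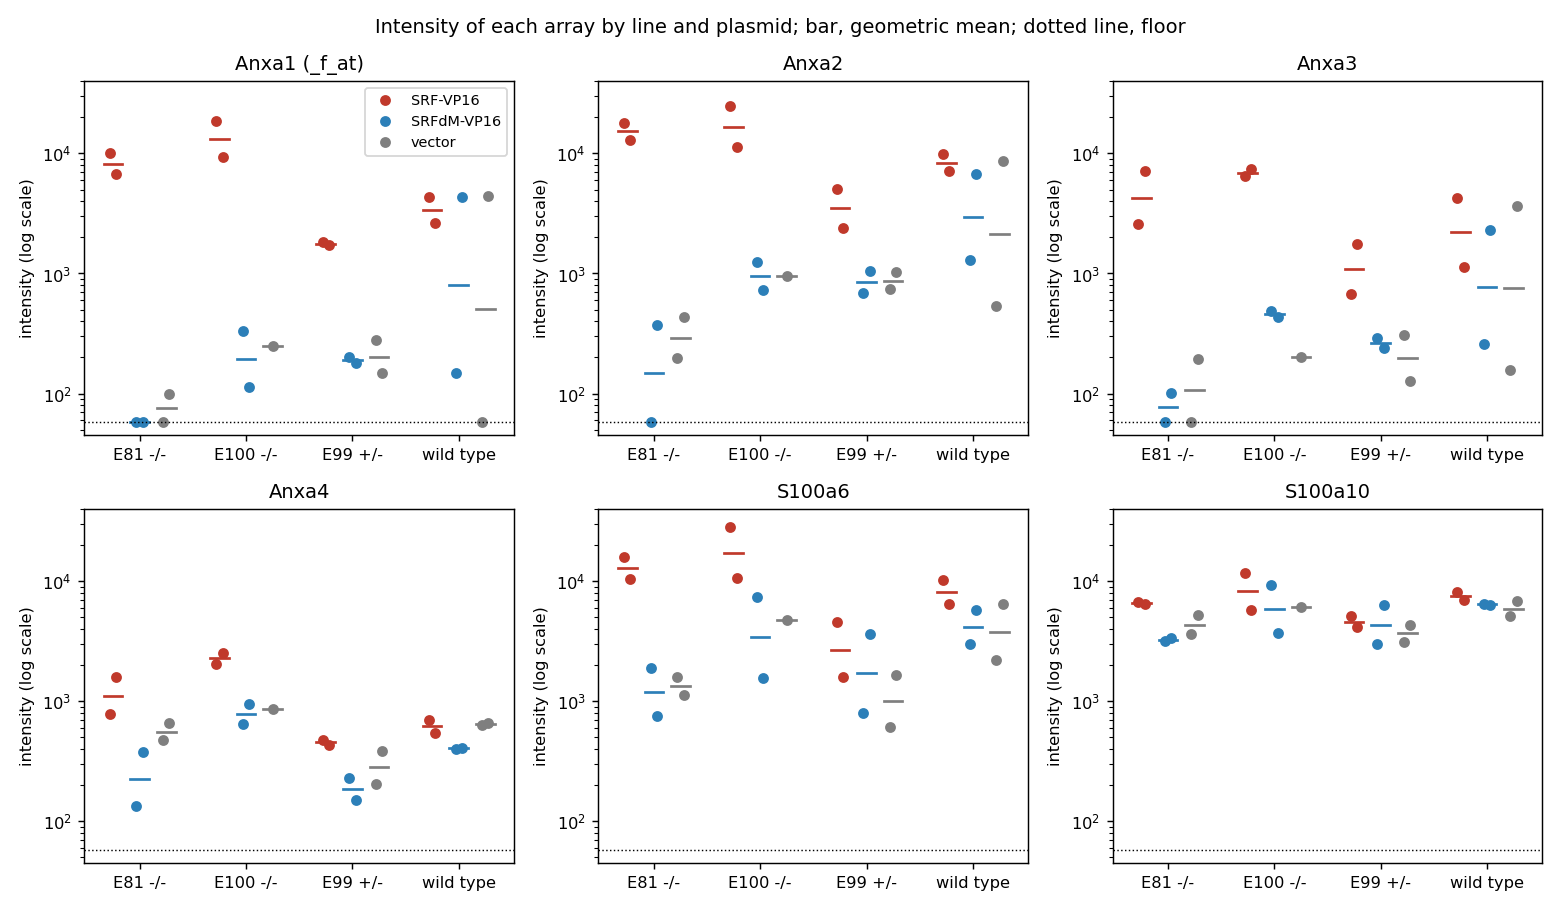
Intensity (log scale) of 6 probe sets on each of the 23 arrays, by line and plasmid; each point is an array, the bar is the geometric mean and values under the floor of 58 are drawn at it. The _f_at probe set of Anxa1, Anxa2 and Anxa3 are at 2598 or more with SRF-VP16 in E81 and E100, and at 1239 or less in the other E81 and E100 groups, while S100a10 stays between 2963 and 11734 on all arrays.

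Anxa1 encodes annexin A1, a glucocorticoid-induced protein that dampens inflammation through formyl peptide receptors. Its _f_at probe set, a design that can also bind related transcripts, read 10103 and 6682 in E81 with SRF-VP16, against -180 and -22 with SRFdM-VP16 and 20 and 99 with vector. In E100 it read 18457 and 9273 with SRF-VP16, against 331 and 114 with SRFdM-VP16 and 248 with vector. The -/- groups did not overlap, and 2 of the 4 SRFdM-VP16 arrays were at the floor. The log2 difference in the -/- lines was 6.61 ± 1.14 with the floor at 58 and 5.07 with it at 301, the 60th percentile of all values. In E81, where both SRFdM-VP16 arrays were at the floor, SRF-VP16 was at least 142-fold higher with the floor at 58, and in E100 the difference was 6.07 ± 1.61.

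The same Anxa1 probe set read 1831 and 1722 in E99 with SRF-VP16, against 200 and 181 with SRFdM-VP16 and 278 and 147 with vector, with no overlap. In wild type it read 4361 and 2627 with SRF-VP16, within the range of the 4 wild-type control arrays. The difference in wild type and E99 was 2.65 ± 1.14. It was 3.86 without the wild-type control arrays numbered 2 and 1.43 without the first wild-type array with SRFdM-VP16. The other probe set of Anxa1, _i_at, is of a design with few probes.

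This second Anxa1 probe set read 1524 and 675 in E81 and 2291 and 1381 in E100 with SRF-VP16. All 4 SRFdM-VP16 arrays of these lines lay between -109 and 30, at the floor, so SRF-VP16 was at least 23.2-fold higher (4.53 ± 0.63) with the floor at 58. With the floor at 301 the log2 difference was 2.16. In E99 it read 211 and 210 with SRF-VP16, against 8 and 13 with SRFdM-VP16. In wild type it read 425 and 192, which overlapped the controls at 18 to 692. The difference in wild type and E99 was 1.64 ± 0.63. It was 2.11 without the wild-type control arrays numbered 2 and 0.12 with the floor at 301.

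Anxa2 encodes annexin A2, which carries S100A10 and binds plasminogen and its activator at the cell surface. It read 17897 and 12997 in E81 with SRF-VP16, against -533 and 373 with SRFdM-VP16 and 197 and 432 with vector. In E100 it read 24697 and 11259 with SRF-VP16, against 1239 and 723 with SRFdM-VP16 and 961 with vector. Every SRF-VP16 array of the -/- lines was therefore above every control array of these lines. The difference was 5.42 ± 0.81, and 4.75 without the first E81 array with SRFdM-VP16, which held the -533.

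In E99 Anxa2 read 5084 and 2393 with SRF-VP16, against 686 and 1053 with SRFdM-VP16 and 736 and 1032 with vector, again without overlap. In wild type it read 9854 and 7089 with SRF-VP16, and the control arrays numbered 2, at 6787 and 8627, lay close to or between these. The difference in wild type and E99 was 1.76 ± 0.81, 2.36 without the arrays numbered 2 and 1.17 without the first wild-type array with SRFdM-VP16, and was called in none of these. Ordered by group mean, E100 and E81 with SRF-VP16 came first and overlapped each other, and neither overlapped wild type with SRF-VP16, the next group. Of the 11 neighbouring pairs in that order 8 overlapped, and E81 with vector and with SRFdM-VP16 came last.

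Anxa3 encodes annexin A3, an annexin best known from neutrophils. It read 2598 and 7066 in E81 and 6452 and 7377 in E100 with SRF-VP16. The SRFdM-VP16 arrays read -133 and 102 in E81 and 490 and 434 in E100, and the vector arrays 43 and 195 in E81 and 200 in E100. The groups of the -/- lines did not overlap, and the difference was 4.85 ± 0.92, or 3.87 with the floor at 301. In E99 Anxa3 read 675 and 1750 with SRF-VP16, against 288 and 241 with SRFdM-VP16 and 308 and 127 with vector, without overlap. In wild type it read 4276 and 1131 with SRF-VP16, which overlapped the controls at 156 to 3620. The difference in wild type and E99 was 1.78 ± 0.92, 2.56 without the wild-type control arrays numbered 2 and 0.99 without the first wild-type array with SRFdM-VP16.

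Anxa4 encodes annexin A4, found in many epithelia. With SRF-VP16 it read 779 and 1591 in E81 and 2058 and 2501 in E100. The controls read 135 and 378 with SRFdM-VP16 and 471 and 663 with vector in E81, and 651 and 938 with SRFdM-VP16 and 856 with vector in E100. Within each -/- line the groups did not overlap, while the E81 arrays with SRF-VP16 overlapped the E100 controls. The difference was 1.92 ± 0.35 against SRFdM-VP16 and 1.20 ± 0.39 against vector, where it was not called. In E99 it read 472 and 435 with SRF-VP16, against 230 and 150 with SRFdM-VP16 and 203 and 387 with vector, and in wild type 702 and 546, against 400 and 409 with SRFdM-VP16 and 636 and 654 with vector.

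Anxa5 encodes annexin A5, the protein used to stain phosphatidylserine on dying cells. It read 3081 and 3456 in E81 and 6087 and 1438 in E100 with SRF-VP16, against 284 to 2745 on the 7 control arrays of these lines, which overlapped. Its difference was 1.10 ± 0.62 in the -/- lines and 0.90 ± 0.62 in wild type and E99. The first of these was 0.58 without the first E100 array with SRF-VP16 and 1.62 without the second. The difference in wild type and E99 was 1.36 without the wild-type control arrays numbered 2 and 0.45 without the first wild-type array with SRFdM-VP16.

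Anxa6 encodes annexin A6, the annexin with a doubled core, which binds cholesterol-rich membranes and actin. It read 1946 and 1629 in E81 and 5790 and 1213 in E100 with SRF-VP16, against 435 to 1337 on the 7 control arrays. Only the second E100 array with SRF-VP16 lay inside the control range. The difference was 1.31 ± 0.42 and was not called, and it was 0.74 without the first E100 array with SRF-VP16 and 1.87, and called, without the second.

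Anxa7 encodes annexin A7, also called synexin, which aggregates secretory granules. It read 242 and 511 in E81 and 561 and 513 in E100 with SRF-VP16, against 43 to 682 on the 7 control arrays, inside whose range all 4 lay. Its difference was 0.76 ± 0.56 in the -/- lines and 0.40 ± 0.56 in wild type and E99. The first was 0.21 without the first E81 array with SRFdM-VP16, which read 43, and the second turned to -0.03 when each array was divided by its median.

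S100a6 encodes calcyclin, a protein of proliferating cells that binds annexins A2, A6 and A11 and the calcyclin-binding protein. It read 15713 and 10462 in E81 with SRF-VP16, against 1880 and 749 with SRFdM-VP16 and 1581 and 1118 with vector. In E100 it read 28132 and 10510 with SRF-VP16, against 7432 and 1572 with SRFdM-VP16 and 4717 with vector. The -/- groups did not overlap, and the difference was 2.88 ± 0.65, but the fit called S100a6 in only 21 of 30 alternative settings. The call was lost against vector, after division by the array median, with no filter and with the floor at 301. It was also lost when the second SRFdM-VP16 array of E81 or E100, either E81 array with SRF-VP16 or the first E100 array with SRF-VP16 was left out, with differences of 2.32 to 3.44 when each array was left out. In E99 it read 4527 and 1592 with SRF-VP16, against 804 and 3644 with SRFdM-VP16 and 604 and 1665 with vector, which overlapped. In wild type it read 10148 and 6435 with SRF-VP16, against 3015 and 5727 with SRFdM-VP16 and 2217 and 6463 with vector. The difference in wild type and E99 was 0.80 ± 0.65, and 1.04 without the wild-type control arrays numbered 2.

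S100a10, the partner of annexin A2, read 6672 and 6393 in E81 with SRF-VP16, against 3151 and 3352 with SRFdM-VP16 and 3650 and 5166 with vector. In E100 it read 11734 and 5785 with SRF-VP16, against 9308 and 3711 with SRFdM-VP16 and 6108 with vector, which overlapped. The difference in the -/- lines was 0.75 ± 0.31 and was not called, and in wild type and E99 it was 0.16 ± 0.31. The second of these turned to -0.27 when each array was divided by its median. Over all 23 arrays S100a10 ran from 2963 to 11734, while Anxa2 ran from -533 to 24697.

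**Figure D2:**
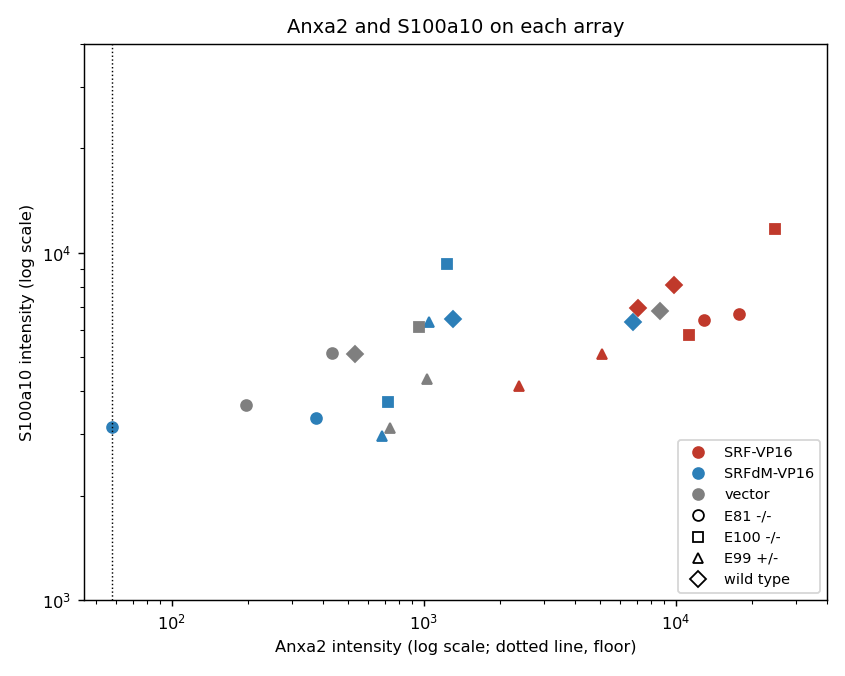
Anxa2 intensity (horizontal, log scale, values under the floor of 58 drawn at it) against S100a10 intensity (vertical, log scale) on each of the 23 arrays, coloured by plasmid and shaped by line. The 4 SRF-VP16 arrays of E81 and E100 lie at the right, at 11259 or more for Anxa2, with S100a10 between 5785 and 11734.

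The shared S100a11 probe set read 3827 and 3535 in E81 with SRF-VP16, against 345 and 640 with SRFdM-VP16 and 386 and 1239 with vector. In E100 it read 7010 and 3161 with SRF-VP16, against 2639 and 1627 with SRFdM-VP16 and 1826 with vector, and the -/- groups did not overlap. The difference was 2.08 ± 0.37 in the -/- lines, called in all 30 alternative settings. In wild type and E99 it was 0.15 ± 0.37, and -0.27 when each array was divided by its median. S100A11 also has a role in the barrier of keratinocytes and in membrane repair.

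**Figure D3:**
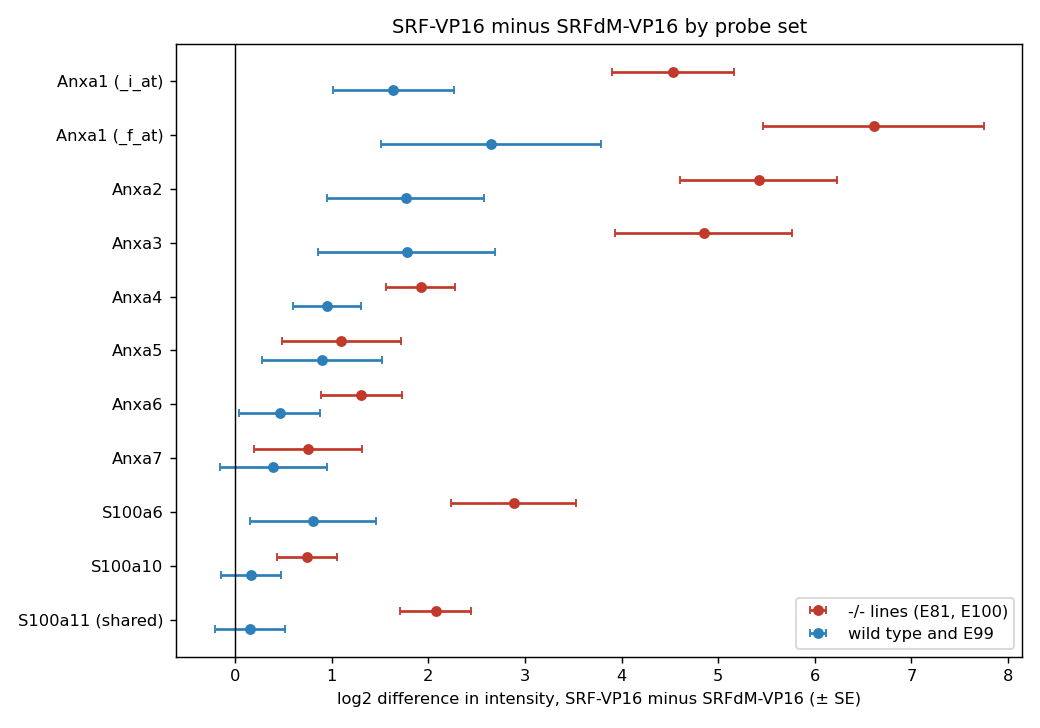
Log2 difference in intensity, SRF-VP16 minus SRFdM-VP16 (horizontal, ± SE), for each probe set in the -/- lines and in wild type with E99. With the floor at 58, the points of the -/- lines run from 0.75 for S100a10 to 6.61 for the _f_at probe set of Anxa1, and those of wild type with E99 from 0.15 to 2.65.

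Each of the 10 probe sets had a positive difference between the SRF-VP16 effect in the -/- lines and that in wild type and E99, but 0 of 10 were called in limma, beside 0.135% of all probe sets called higher, and the difference is a description. It was 3.96 ± 1.61 and 2.90 ± 0.89 for the _f_at and _i_at probe sets of Anxa1, 3.65 ± 1.14 for Anxa2, 3.08 ± 1.29 for Anxa3 and 2.08 ± 0.92 for S100a6. It was 0.20 ± 0.88 for Anxa5 and 0.59 ± 0.44 for S100a10. Without the wild-type control arrays numbered 2 it was 2.76 and 2.45 for the _f_at and _i_at probe sets of Anxa1. It was then 3.06 for Anxa2 and 2.30 for Anxa3, and it turned to -0.26 for Anxa5. With both kinds of control counted, the SRF-VP16 arrays of the -/- lines lay above all 7 control arrays for 5 of the 10 probe sets, beside 3.34% of all probe sets, and the choice of genes fixes this direction.

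Comparisons among vector and SRFdM-VP16 arrays were tested. Their group means take no value from the SRF-VP16 arrays, but those arrays enter the shared estimate of the spread, and the SRFdM-VP16 arrays are also one side of the comparison on which the genes were chosen, so these tests are not fully independent of that choice. Between -/- and wild-type cells with vector or SRFdM-VP16, 0 of the 10 probe sets were called in limma, beside 0.083% of all probe sets, and 4 had an unadjusted p under 0.05, as did 609 of all 9643. Anxa2 averaged 484.6 ± 575.4 (SD, n = 7) in -/- controls and 4312.1 ± 4003.8 (SD, n = 4) in wild-type controls, a difference of -2.51 ± 0.73 (limma adjusted p = 0.452). It was -0.91 ± 0.62 without the wild-type arrays numbered 2, and -3.51 with an adjusted p of 0.0367 without the first wild-type array with vector. The _f_at probe set of Anxa1 differed by -2.40 ± 1.03 (limma adjusted p = 0.73), and by 0.38 ± 0.46 without the arrays numbered 2.

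The same comparison was made for the other genes. Anxa3 averaged 190.1 ± 217.3 (SD, n = 7) in -/- controls and 1581.8 ± 1676.6 (SD, n = 4) in wild-type controls, a difference of -2.20 ± 0.82 (limma adjusted p = 0.642), or -0.29 ± 0.65 without the arrays numbered 2. The shared S100a11 probe set averaged 1243.1 ± 850.6 in -/- controls and 3022.7 ± 820.1 in wild-type controls, a difference of -1.48 ± 0.33 (limma adjusted p = 0.156), or -1.19 ± 0.43 without those arrays, and it was called at -1.69 (limma adjusted p = 0.0472) without the second E81 array with vector. S100a10 differed by -0.37 ± 0.28, or -0.28 without those arrays, and S100a6 by -0.82 ± 0.59, or -0.20 without them, and neither was called. Anxa4 differed by 0.08 ± 0.32, Anxa6 by -0.66 ± 0.38 and Anxa7 by 0.48 ± 0.50. Anxa5 differed by 0.17 ± 0.56, by 0.99 without the arrays numbered 2 and by -0.47 on the vector arrays alone. The _i_at probe set of Anxa1 differed by -1.30 ± 0.57, and by 0.04 without the arrays numbered 2.

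**Figure D4:**
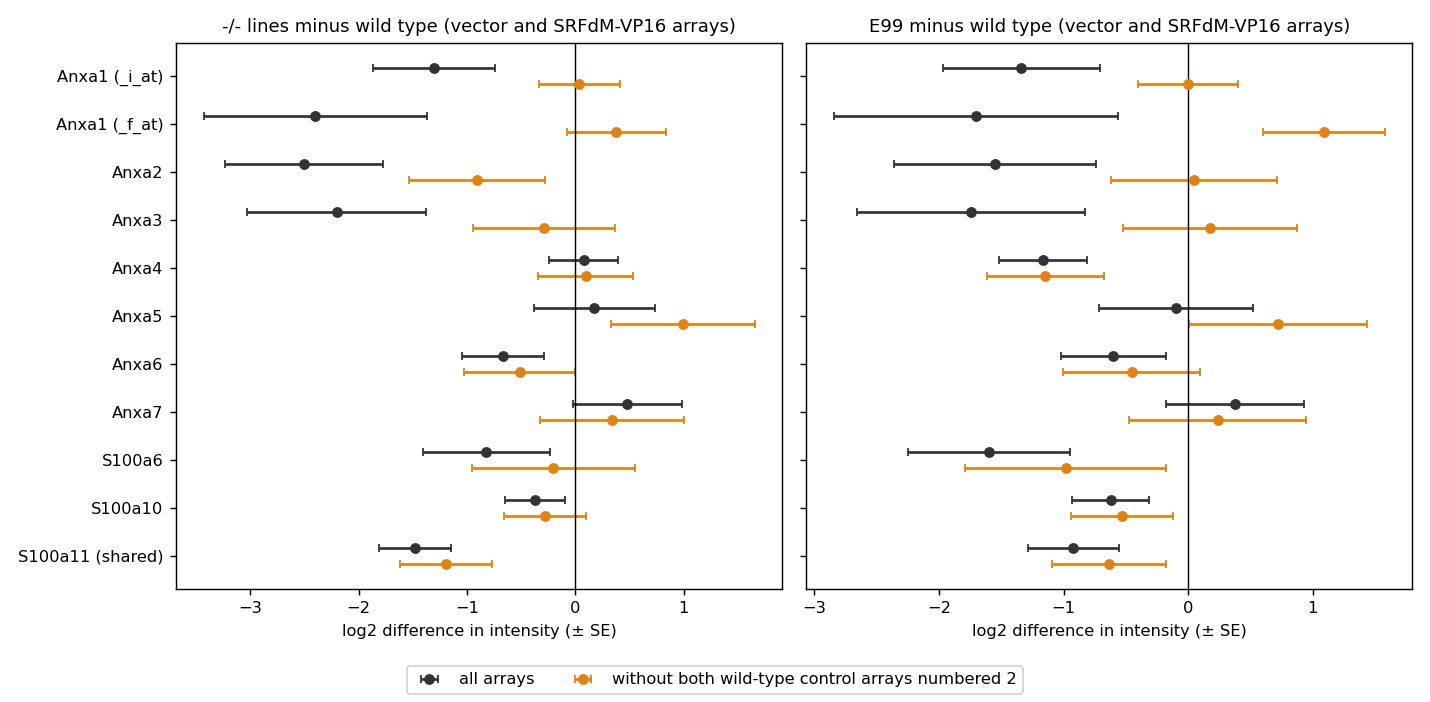
Log2 differences (horizontal, ± SE) between -/- lines and wild type, left, and between E99 and wild type, right, over vector and SRFdM-VP16 arrays, with all arrays and without both wild-type control arrays numbered 2. Anxa1, Anxa2 and Anxa3 move towards or past 0 without those arrays, and the shared S100a11 probe set stays at -1.19 in the left panel.

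Between E99 and wild-type controls 0 of the 10 probe sets were called in limma, beside 0.0726% of all probe sets. An unadjusted p under 0.05 was found for 404 of all 9643 probe sets, and for 2 of the 10. These were Anxa4, at -1.16 ± 0.35 (limma adjusted p = 0.667), and S100a6, at -1.60 ± 0.65 (limma adjusted p = 1), or -0.98 without the wild-type arrays numbered 2. Anxa4 averaged 242.5 ± 101.9 in E99 controls and 524.9 ± 139.2 in wild-type controls (SD, n = 4 each), without overlap, and its difference was -1.15 ± 0.47 without the arrays numbered 2. The differences of Anxa2 and Anxa3 were -1.55 ± 0.81 and -1.74 ± 0.92, and 0.05 ± 0.67 and 0.18 ± 0.70 without those arrays. The _f_at probe set of Anxa1 differed by -1.70 ± 1.14, and by 1.09 ± 0.49 without them, and Anxa5 by -0.10 ± 0.62, and by 0.72 without them.

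The 2 -/- lines were also compared with each other without SRF-VP16. With vector or SRFdM-VP16, 9 of the 10 probe sets were lower in E81 than in E100. In limma 0 were called, beside 0.788% of all probe sets. An unadjusted p under 0.05 was found for 3 of the 10, and for 1325 of all 9643. Over all probe sets the median difference was -0.27, against -1.14 over the 10. With array values divided by the array's median, 8 of the 10 were lower in E81, S100a10 turned to 0.02, and the medians were 0.20 over all probe sets and -0.45 over the 10. Anxa2 averaged 117.2 ± 444.8 in E81 (SD, n = 4) and 974.3 ± 258.3 in E100 (SD, n = 3), without overlap, a difference of -2.20 ± 0.90 (limma adjusted p = 0.299), or -1.53 without the first E81 array with SRFdM-VP16. Anxa4 differed by -1.20 ± 0.39 (limma adjusted p = 0.198) and S100a6 by -1.68 ± 0.73 (limma adjusted p = 0.331), and after that division by -0.52 and -0.99.

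The shared S100a11 probe set averaged 652.5 ± 412.2 in E81 controls (SD, n = 4) and 2030.7 ± 536.1 in E100 controls (SD, n = 3), without overlap. Its difference was -1.77 ± 0.41 (limma adjusted p = 0.067), or -1.08 after division by the array median. Without the first E81 array with SRFdM-VP16, the array with the lowest median, it was -1.55 and was not called. It was called at -2.19 without the second E81 array with vector. It was called at -1.99 without the second E81 array with SRFdM-VP16, which left only the first in that group. It was also called when either E100 array with SRF-VP16 was left out (limma adjusted p = 0.0491 and 0.0482), which leaves the difference as it was. Leaving out the second E81 array with SRFdM-VP16 also led to a call for Anxa4, at -1.57. Leaving out the first instead gave -0.83 for Anxa4, not called.

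Between SRFdM-VP16 and vector over all lines 0 of the 10 probe sets were called in limma, beside 0.799% of all probe sets. An unadjusted p under 0.05 was found for 1 of the 10, Anxa4, and for 1345 of all 9643. Anxa4 averaged 411.4 ± 270.9 with SRFdM-VP16 (SD, n = 8) and 552.9 ± 215.2 with vector (SD, n = 7), a difference of -0.68 ± 0.26 (limma adjusted p = 0.267), or -0.06 after division by the array median. The median difference was -0.07 over the 10 probe sets and -0.21 over all probe sets. With the values as deposited, the other differences ran from -0.26 ± 0.47 for the _i_at probe set of Anxa1 to 0.30 ± 0.69 for Anxa3. After that division 8 of the 10 differences were above 0, with a median of 0.45 over the 10 and 0.25 over all probe sets, and S100a6 stood at 0.69.

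Among themselves the genes formed no single pattern over the 12 group means of log2 intensity. The _f_at probe set of Anxa1 and Anxa2 had r = 0.982 over the 12 groups and 0.983 over the 8 control groups, and Anxa2 and Anxa3 had 0.981 and 0.941. S100a6 and S100a10 had 0.931 and 0.957, and Anxa2 and S100a10 had 0.819 and 0.789. Anxa7 had 0.191 with Anxa6 and at most 0.623 with any other member, in that case Anxa4. These correlations describe groups that share lines and plasmids, and they carry no test.

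The genes most alike in pattern, by Pearson correlation over the same 12 group means, were taken as the 3 highest for each of 4 probe sets. For Anxa1 (_f_at) they were Csrp1 at 0.981, Tagln at 0.976 and Sfn at 0.976, and for Anxa2 they were Krt8 at 0.971, Mapkapk2 at 0.967 and Lgals1 at 0.967. For S100a10 they were Tmsb4x at 0.933, Myadm at 0.925 and Slc2a1 at 0.912, and for the shared S100a11 probe set Wdr1 at 0.966, Myo1c at 0.939 and Rnh1 at 0.931. Without the 2 groups farthest from the median of the compared probe set, Wdr1, Myo1c and Rnh1 had 0.903, 0.828 and 0.746. The others had 0.907 or more. Over the 8 control groups all of them ran from 0.856 to 0.98. The 12 groups include those with SRF-VP16 on which the members were chosen.

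Other genes of the same families and their binding partners came from fixed lists. Of 5 other annexins 1 was kept, Anxa8, with a difference of 1.45 ± 0.58 between SRF-VP16 and SRFdM-VP16 in the -/- lines, not called. Of 14 other S100 genes 9 were kept and 0 were called in any of the comparisons, with a median difference there of -0.03. They included S100a13 at 1.19 ± 1.11, S100a1 at 1.14 ± 1.25, S100a5 at 0.24 ± 0.39 and S100g at -0.13 ± 0.35. Of 18 partners 10 were kept and 0 were called, with a median of 0.53 there. Those with the smallest p in that comparison were Pdcd6ip, an ESCRT adaptor also called Alix, at 0.92 ± 0.27, and the calpain subunit Capn2 at 1.20 ± 0.44. Next came Pdcd6, the calcium sensor ALG-2, at 0.63 ± 0.26, and Plg, plasminogen, at 0.70 ± 0.37. Of the 4 SRFdM-VP16 arrays 3 were at the floor for S100a1 and 2 for Plg, so the size of these 2 differences depends on it.

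Annexins and S100 genes are also abundant in fibroblasts and in epithelia, so markers of other cell types were measured beside them. Of 11 fibroblast markers with a probe set 10 were kept and 0 were called between SRF-VP16 and SRFdM-VP16 in the -/- lines. The summed intensity of the 11 was 1190 to 1433 on the SRF-VP16 arrays and 975 to 1575 on the controls of these lines. Of these, Col1a2, Col5a2, Pdgfra, Pdgfrb, Postn and Loxl1 were at the floor on most arrays. The summed primitive endoderm markers were 9233 to 22677 on the -/- arrays with SRF-VP16 and 2944 to 9252 on the -/- controls, and 9 of 11 were kept. Col4a1 and Col4a2 were called higher, and averaged 8837.5 and 3277.2 with SRF-VP16 and 1728.5 and 891.8 with SRFdM-VP16. Gata4, Lama1 and Dab2 were lower, at -0.795, -0.918 and -0.632. Gata6, Lamb1, Afp and Sox17 were higher, at 1.059, 0.388, 0.211 and 0.19, and none of these was called. Gata6, Sox17, Foxa2, Afp and Ttr were at the floor on most arrays.

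The summed trophoblast markers were 736 to 3084 on the -/- arrays with SRF-VP16 and 40 to 528 on the -/- controls. Of 6 with a probe set 4 were kept and 2, Krt7 and Tpbpa, were called higher. With SRF-VP16 in the -/- lines Krt7 averaged 1362.8 ± 897 (SD, n = 4). Tpbpa averaged 99 ± 114.8 there, near the floor, with its lowest array at -3. All 4 SRFdM-VP16 arrays of these lines were at the floor for both genes. Eomes and Cdx2 differed by 0.582 and 0.222 and were not called. Cdx2, Hand1 and Elf5 were, like Krt7 and Tpbpa, at the floor on most arrays. The summed neurectoderm markers were 1773 to 4477 and 465 to 1580 on the same arrays, and 5 of 6 were kept. Nes, which encodes nestin, was called higher, at 2.935. It averaged 2458.2 with SRF-VP16 and 300.8 with SRFdM-VP16 in the -/- lines. Pax6, Neurod1 and Tubb3 were lower, at -0.291, -0.862 and -0.514, and Sox1 was higher, at 0.259, none of them called. Map2 and Tubb3 were at the floor on most arrays. The 5 mesoderm markers with a probe set gave 199 to 609 and 202 to 994. Of these 3 were kept and 0 were called, and Mesp1 and Nkx2-5 were at the floor on most arrays. The 10 ES cell markers gave 34684 to 61242 and 54205 to 100972, with 2 called lower, Klf2 and Fgf4. In wild type the control arrays numbered 2 gave 54519 to 69105 for the ES cell list, against 76758 to 84447 on those numbered 1, and 6636 to 7553 for the primitive endoderm list, against 3700 to 4211. In bulk RNA fewer cells of a type and less RNA per cell cannot be told apart, and the part of these cell types in the annexin and S100 values was not tested.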

How the data were processed

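The authors deposited a linear intensity for every probe set on every array, and it was used unscaled. Which software, background correction and scaling they applied is not given in the sources used here. Values at or below 0 show that some background had been taken off. Probe sets were named through GEO's platform annotation, in which 10141 had 1 symbol, 362 several and 1933 none. The 66 control probe sets were left out, values under the 40th percentile (58) were set to it, and log2 was taken. Probe sets above the 40th percentile of their array in at least 2 arrays were kept (9643 of 12436). limma 3.58.1 in R 4.3.3 fitted 12 group means over 23 arrays with an intensity trend and 11 residual degrees of freedom, two-sided, with Benjamini-Hochberg adjustment. The procedure was tested on simulated data.

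Every probe set with a single member symbol is described. Of the related lists up to 4 genes each are named, those with the smallest p in the -/- SRF-VP16 comparison, and the most alike genes are the 3 with the highest correlation. The members and lists were chosen with earlier results of these data known. Alternatives were quantile normalization, division by the array median, no filter, a floor at the 60th percentile, a replicate block, vector or SRFdM-VP16 alone as control, leaving out both wild-type control arrays numbered 2, and leaving out each array.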

Additional observations from a re-analysis of the deposited data

Results flagged for a closer look

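Within groups of 4 to 7 arrays, a single array lay far from the others in 9 of 75 cases by Dixon's test on log2 values. Chance gives about 1 in 20 where groups are independent and each comes from a single normal population. These groups share arrays, mix lines or plasmids and hold values set to the floor, so no excess is read from the 9. In the -/- lines with SRF-VP16 the first E81 array was the lowest for Anxa3 (2598, gap 0.872 of the range) and for Anxa7 (242, gap 0.889). In the -/- lines with SRFdM-VP16 the first E100 array was the highest for S100a10 (9308, gap 0.849), and among the -/- controls the first E81 array with SRFdM-VP16 was the lowest for Anxa7 (43, gap 0.573). Among E99 controls the second vector array was the highest for Anxa6 (1554, gap 0.941).

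For Anxa1 the cases lay near the floor or at low signal. The first E81 vector array was the highest of the E81 controls and of all -/- controls for the _i_at probe set (70, gap 1 in both), and the second E81 vector array was the highest of the E81 controls for the _f_at probe set (99, gap 1), with all other arrays of those groups at the floor. In wild type and E99 with SRF-VP16 the first wild-type array was the highest for the _i_at probe set (425, gap 0.881).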

How the results depend on the processing

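The number of the 10 probe sets called between SRF-VP16 and SRFdM-VP16 in the -/- lines was 6, and 4 to 6 under 7 other settings (4 against vector) and 5 to 7 when each array was left out. Over all probe sets 272 were called there, and 224 to 360 under the 7 other settings. Without both wild-type control arrays numbered 2, only 1 array was left in each wild-type control group. The differences of the Anxa1 probe sets in wild type and E99 were then 3.86 (_f_at) and 2.11 (_i_at). With all arrays the number called in wild type and E99 was 0. When each array was left out, it was 0 to 1 between -/- and wild-type controls and 0 to 1 between E81 and E100, and 0 in the other comparisons. The causes were not tested. The samples share only a replicate number. Same-numbered vector and SRFdM-VP16 arrays had deviations correlated at 0.417 in wild type, 0.317 in E99 and 0.306 in E81. Pairs with an SRF-VP16 array had -0.349 to -0.253 in wild type and E99, and 0.248 to 0.277 in E81 and E100. The main fit took all arrays as independent, so the SE and p-values of the control comparisons do not allow for this. With a replicate block within each line the count in the -/- lines was also 6. The shared S100a11 probe set then passed between E81 and E100 (-2.002, limma adjusted p = 0.0301).

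Counts over all probe sets moved more, over all settings but the leaving out of single arrays: 4 to 82 between -/- and wild type (8 with all choices as planned), 2 to 16 between E99 and wild type (7), 21 to 155 between E81 and E100 (76), 1 to 179 between SRFdM-VP16 and vector (77, and 2 with the replicate block), 1 to 31 for SRF-VP16 in wild type and E99 (4) and 9 to 38 for the difference of the SRF-VP16 effects (13). Leaving out single arrays gave 4 to 39, 2 to 35, 51 to 357, 4 to 341, 3 to 35 and 10 to 58 in the same order, and 189 to 504 for SRF-VP16 in the -/- lines (272). The highest of these for E81 against E100, SRFdM-VP16 against vector, the difference of effects and SRF-VP16 in the -/- lines (357, 341, 58 and 504) all came without the second E81 array with SRFdM-VP16. The split of higher and lower calls for SRF-VP16 in the -/- lines was 239 and 33, but 243 and 117 after quantile normalization and 167 and 121 after division by the median. Between E81 and E100 it was 0 and 76, but 4 and 23 after quantile normalization and 8 and 13 after division by the median. With that division the median difference over the whole table was 0.25 for SRFdM-VP16 minus vector, 0.20 for E81 minus E100 and -0.16 for SRF-VP16 in the -/- lines, and without it -0.21, -0.27 and 0.04 for the same comparisons. Dim values limit Anxa1 and Anxa3, whose -/- controls lie near the floor.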
